A study of Mus musculus with 18 samples.

Results

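The HOX genes are the homeobox transcription factors of the 4 Hox clusters. They were taken from the deposited gene table by their symbol, Hox followed by the cluster letter (a to d) and a number, which found 38 of the table's 36737 genes. Hoxb1 was not analysed here. All 38 were followed in bulk RNA-seq of L3–L5 dorsal root ganglia (DRG), the ganglia that hold the sensory neurons of the lower limb.

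The mice were adult CD1 mice, an outbred strain, and the labels name no transgene or targeted allele. The 3 groups were sham surgery (Sham), tibial fracture with vehicle (Fracture), and tibial fracture with protectin DX (Fracture+PDX, or PDX mice), a lipid mediator derived from docosahexaenoic acid. There were 6 mice in each group (3 of each sex), every mouse gave 1 library, and fractured mice were sampled on day 3. The day of collection in sham mice and the dose of PDX in these mice are not given in the sources used here.

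Hox genes lie in clusters in the order in which they are used along the body. Genes at the 3′ end of a cluster, with low paralog numbers, start at the level of the hindbrain, and genes at the 5′ end, with high numbers, start progressively further toward the tail. In the embryo their combination tells a segment which vertebra, motor columns and sensory neurons to form, and neurons of adult ganglia keep part of that code. Paralog groups 10 and 11 are known for the lumbar and sacral region, and group 13 for the tail and the ends of the limbs.

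In these adult lumbar ganglia HOX expression was highest in paralog groups 5 to 10 and in Hoxd1. The 22 genes called expressed had a median of at least 1 FPKM (fragments scaled to transcript length and sequencing depth, the authors' values, used here for every comparison of levels between genes). Another 10 genes were low, with a median between 0.1 and 1 FPKM, and 6 were near the floor, under 0.1 FPKM. Every gene of groups 6 to 10 was expressed. No gene of groups 11 to 13 reached a median of 1 FPKM.

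The tissue label held against marker genes. The summed level of 17 sensory neuron genes, among them Tubb3, Prph and Avil, was between 4622 and 5384 FPKM in every library. The 9 forebrain and midbrain genes, which mark brain regions that lie anterior to HOX expression, all had a median under 0.1 FPKM. They summed to 1.09 FPKM in Fracture male 2 and to between 0.18 and 0.38 FPKM in every other library. The libraries held 63235040 to 82824942 counted reads, of which the 38 HOX genes took between 21016 and 27508.

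Markers of other tissues were measured in the same libraries. The sum of 19 placenta genes was 136 to 434 FPKM in sham, 24.7 to 194 FPKM in fracture and 22.5 to 107 FPKM in PDX libraries, and edgeR called 9 of the 19 lower in fracture and 15 lower in PDX mice than in sham (2.92% and 4.5% of all genes were called, in either direction). The sum of 7 genes of the embryo and fetus, among them Hbb-y, H19 and Igf2, was 175 to 319 FPKM in sham, 73.7 to 153 FPKM in fracture and 88.4 to 141 FPKM in PDX libraries, so that sham did not overlap with the others, and 4 of the 7 were called lower than in sham in each fracture group, at the same backgrounds. The sum of 10 spinal cord genes was highest in Sham male 1 (5.66 FPKM), Fracture male 2 (3.93 FPKM) and Sham female 2 (3.91 FPKM) and lay between 2.45 and 3.40 FPKM in the other 15 libraries. The motor neuron genes Mnx1 and Chat had a median of 0 FPKM. The sum of 10 bone marrow genes ranged from 498 to 1427 FPKM in sham, 584 to 879 FPKM in fracture and 311 to 1845 FPKM in PDX libraries, and that of 10 skeletal muscle genes from 14.1 to 267 FPKM, 24.3 to 512 FPKM and 6.14 to 255 FPKM, with wide overlap between the groups.

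**Figure D1:**
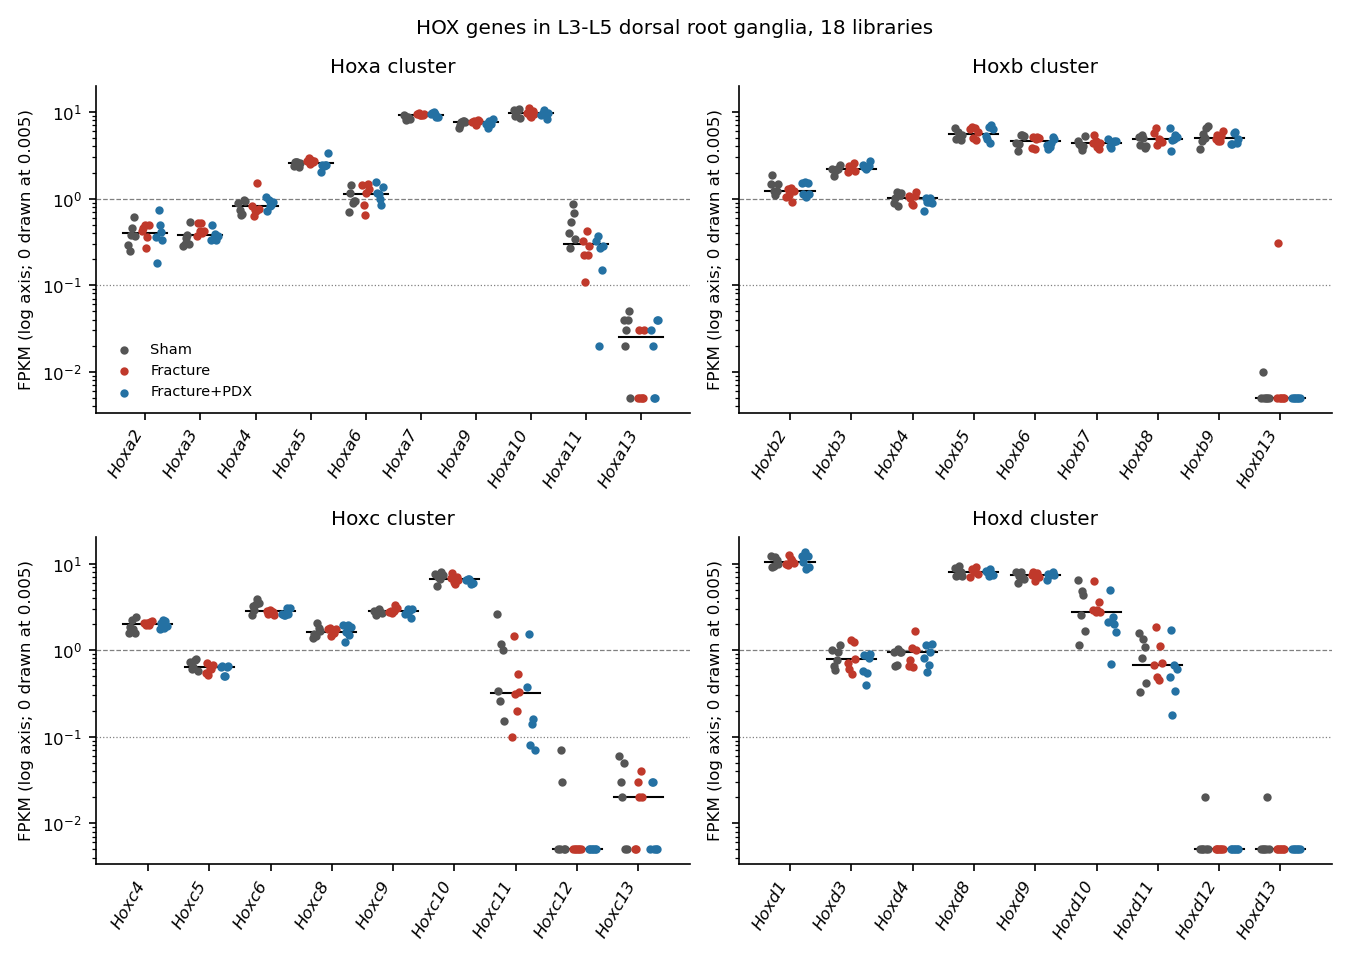
FPKM of Hoxd1 and of the HOX genes of paralog groups 2 to 13 in the 18 libraries, 1 panel per cluster, on a log axis, with genes ordered by paralog number. Points are libraries colored by group, black bars are medians over all libraries, and the dashed and dotted lines mark 1 and 0.1 FPKM. In HoxA and HoxD, medians were higher in groups 7 to 10 than in groups 2 to 6. In HoxB the highest was Hoxb5 (5.64 FPKM), and in HoxC Hoxc8 (1.635 FPKM) lay below Hoxc6 (2.81 FPKM). Levels dropped at group 11 and were near 0 in groups 12 and 13. Hoxd1 (median 10.5 FPKM) was the exception among the low numbers.

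Among the anterior genes Hoxd1 stood out. Hoxd1, known in mice for its role in the wiring of nociceptive sensory neurons, had the highest median of the 38 genes at 10.5 FPKM and ranked above 88.1% of all genes in the table. Its level was 9.04, 10.5 and 12.1 FPKM (lowest, median and highest mouse) in sham, 9.52, 10.5 and 12.6 FPKM in fracture, and 8.61, 11.2 and 13.5 FPKM in PDX mice. The 3 groups overlapped throughout.

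Group 2, which patterns the hindbrain and the second pharyngeal arch, was the lowest of groups 1 to 10, with a summed median of 1.66 FPKM. Hoxb2 led it with 1.09, 1.35 and 1.88 FPKM in sham, 0.92, 1.15 and 1.34 FPKM in fracture, and 1.04, 1.33 and 1.57 FPKM in PDX mice, and Hoxa2 had a median of 0.395 FPKM. Group 3 summed to 3.38 FPKM and was carried by Hoxb3, at 1.83, 2.17 and 2.43 FPKM in sham, 2.03, 2.2 and 2.61 FPKM in fracture, and 2.17, 2.35 and 2.71 FPKM in PDX mice, since Hoxa3 (0.375 FPKM) and Hoxd3 (0.78 FPKM) were low. Group 4 summed to 4.66 FPKM over its 4 genes, of which Hoxc4 and Hoxb4 (1.01 FPKM) were expressed. Hoxc4 was at 1.56, 1.82 and 2.44 FPKM in sham, 1.96, 2.07 and 2.15 FPKM in fracture, and 1.77, 1.98 and 2.25 FPKM in PDX mice.

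From group 5 to group 10 the sums were higher. Group 5 summed to 8.86 FPKM, led by Hoxb5 at 4.72, 5.28 and 6.57 FPKM in sham, 4.79, 6.11 and 6.74 FPKM in fracture, and 4.44, 5.83 and 7.00 FPKM in PDX mice. Group 6 summed to 8.58 FPKM, led by Hoxb6 at 3.54, 4.83 and 5.39 FPKM in sham, 3.77, 4.93 and 5.14 FPKM in fracture, and 3.71, 4.28 and 5.16 FPKM in PDX mice. Groups 7 and 8, which are known for the thoracic region, reached 13.6 and 14.4 FPKM. Hoxd8 led group 8 at 7.08, 7.67 and 9.31 FPKM in sham, 6.94, 8.20 and 9.09 FPKM in fracture, and 7.22, 7.90 and 8.57 FPKM in PDX mice. Here, too, the groups of mice overlapped.

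Groups 9 and 10, the genes of the lower thoracic and lumbar region, held the largest shares. Group 9 summed to 23.3 FPKM (20.1 to 24.5), a median of 20.7% of all HOX FPKM, and group 10 to 18.4 FPKM (15.7 to 25.1), or 17.0%. Hoxa9 was at 6.54, 7.65 and 7.97 FPKM in sham, 7.16, 7.74 and 8.14 FPKM in fracture, and 6.59, 7.47 and 8.33 FPKM in PDX mice. Hoxa10, a gene that specifies lumbar identity in the vertebral column, was at 8.58, 10.3 and 10.8 FPKM, 8.74, 9.61 and 11.2 FPKM, and 8.29, 9.72 and 10.6 FPKM. The 3 groups of mice had nearly the same range for both genes.

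**Figure D2:**
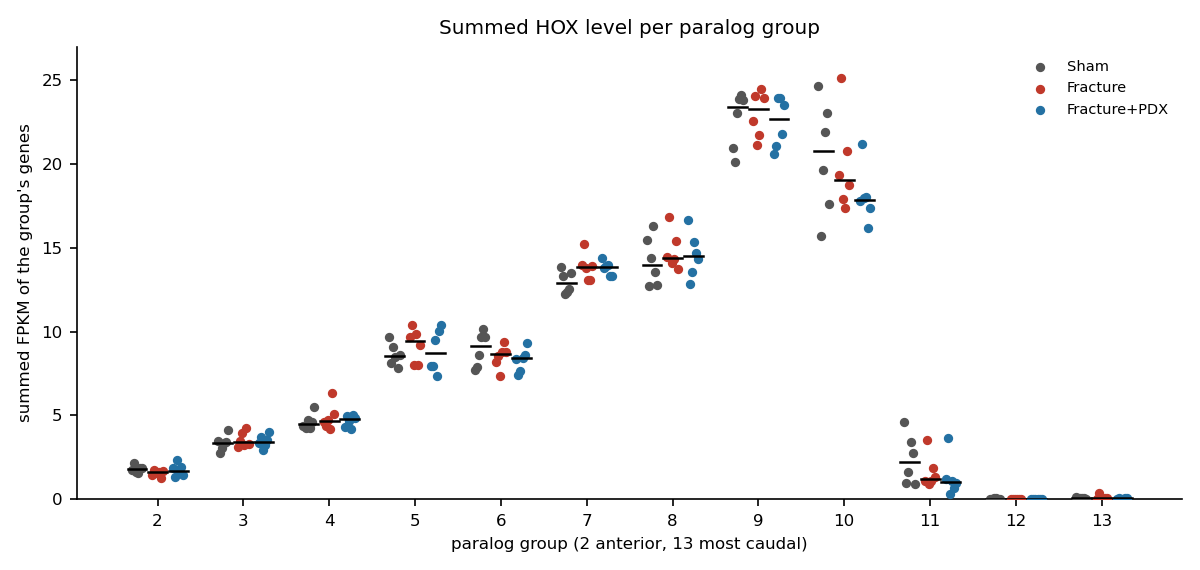
Summed FPKM of the genes of each paralog group from 2 to 13 (y axis, linear) against the paralog group number (x axis). Points are libraries colored by group of mice and black bars are the medians of 6 mice. The lowest sum of groups 2 to 10 is that of group 2 (median 1.66 FPKM over 18 libraries) and the highest that of group 9 (23.3 FPKM), and the sums fall to 1.14 FPKM at group 11.

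The caudal end of the code was nearly silent. Group 11 summed to a median of 1.14 FPKM, or 1.05% of the HOX total, but ranged from 0.28 to 4.61 FPKM between mice. Groups 12 and 13 summed to medians of 0 and 0.04 FPKM. Hoxc12 had at most 6 reads in any library, Hoxd12 and Hoxd13 at most 4, and Hoxa13 and Hoxc13 at most 12. The exception was Hoxb13 in Fracture male 2, with 53 reads (0.31 FPKM) against at most 3 reads in any other library.

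The clusters contributed unequally. The HoxA, HoxB and HoxD clusters summed to medians of 32.5, 29.3 and 30.9 FPKM, and HoxC to 16.9 FPKM. HoxB had the most even profile, with 8 of its 9 measured genes expressed and only Hoxb13 near the floor. In HoxD, Hoxd3 and Hoxd4 (0.96 FPKM) lay between the high genes Hoxd1 and Hoxd8 (7.91 FPKM) and were both low. In mm10 the clusters lie on chromosome 6 (HoxA, minus strand), chromosome 11 at 96194316 to 96354012 (HoxB, plus strand), chromosome 15 at 102921103 to 103036852 (HoxC, plus strand) and chromosome 2 at 74668310 to 74765142 (HoxD, plus strand).

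Gene bodies overlap within the clusters, which bears on how reads were assigned. In the table's coordinates 15 of the 38 genes overlap another gene on the same strand and 14 overlap a gene on the opposite strand. Hoxc5 spans Hoxc6, Hoxc8 and Hoxc9 and partly overlaps Hoxc10, Hoxa3 spans Hoxa4, Hoxa5 and Hoxa6, Hoxd3 overlaps Hoxd4, and the predicted gene Gm28309 overlaps both Hoxd10 and Hoxd11. The libraries were made with a stranded kit, but whether strand was used in counting is not given in the sources used here, so the levels of these overlapping genes are uncertain. Hoxd1, Hoxa10, Hoxb7, Hoxb8, Hoxb9, Hoxc11 and Hoxd9 overlap no other gene.

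Sequence was shown for the genes on which the spread between mice turns. Hoxa10 and Hoxc10 varied less between mice than Hoxd10 did, and all 3 are paralogs of the same group. Their homeoboxes, the 180 bases that encode the homeodomain, are given as read from GENCODE M21 transcripts (GRCm38), 5′ to 3′. Capitals mark codons 42 to 58, which encode the recognition helix that contacts DNA.
Hoxa10: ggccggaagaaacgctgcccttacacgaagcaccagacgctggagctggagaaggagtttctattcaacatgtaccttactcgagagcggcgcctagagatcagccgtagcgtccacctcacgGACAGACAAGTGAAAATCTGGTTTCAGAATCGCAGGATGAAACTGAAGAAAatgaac
Hoxc10: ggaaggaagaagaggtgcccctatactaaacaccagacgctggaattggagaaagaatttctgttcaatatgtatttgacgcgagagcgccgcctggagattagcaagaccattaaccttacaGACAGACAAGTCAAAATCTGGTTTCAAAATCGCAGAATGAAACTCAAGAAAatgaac
Hoxd10: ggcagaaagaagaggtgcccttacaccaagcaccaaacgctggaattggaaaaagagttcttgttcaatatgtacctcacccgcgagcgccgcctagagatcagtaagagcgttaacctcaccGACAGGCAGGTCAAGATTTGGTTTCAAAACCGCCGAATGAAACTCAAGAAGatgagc
Over the 180 bases, Hoxd10 was identical to Hoxc10 at 149 positions (82.8%) and to Hoxa10 at 142 positions (78.9%), and Hoxa10 to Hoxc10 at 145 (80.6%). Over whole transcripts the longest run of identical bases was 14 between Hoxa10 and Hoxd10, 16 between Hoxc10 and Hoxd10, and 17 between Hoxa10 and Hoxc10. The homeoboxes of Hoxc11 and Hoxa11 were identical at 156 of 180 positions (86.7%), with a longest shared run of 20 bases. A read longer than such a run could match only 1 gene of the pair exactly.

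Several HOX genes at the caudal edge of the code differed widely between mice of the same group. They were Hoxd10, Hoxd11, Hoxc11 and, at a low level, Hoxa11. Hoxd10, which specifies lumbar motor and limb identity with its paralogs, was at 6.50, 1.14 and 2.57 FPKM in sham males 1 to 3 and at 4.78, 4.29 and 1.64 FPKM in sham females 1 to 3. In fracture mice it was at 2.88, 6.20 and 2.76 FPKM in males and 2.89, 3.56 and 2.76 FPKM in females. In PDX mice it was at 2.10, 4.93 and 0.69 FPKM in males and 2.38, 1.98 and 1.63 FPKM in females. Every group thus held at least 1 mouse near 5 FPKM or above, and sham and fracture plus PDX also held mice near 1 FPKM.

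Hoxc11, a gene of the lumbosacral region, differed more. It was at 2.62, 0.34 and 0.26 FPKM in sham males and 1.18, 1.01 and 0.15 FPKM in sham females. In fracture mice it was at 0.10, 1.45 and 0.31 FPKM in males and 0.20, 0.53 and 0.33 FPKM in females, and in PDX mice at 0.37, 1.55 and 0.08 FPKM in males and 0.14, 0.16 and 0.07 FPKM in females. Within a group, the highest mouse exceeded the lowest 16.6-fold in sham, 13.8-fold in fracture and 21.4-fold in PDX mice, as CPM, reads scaled to library size. Reads ranged from 11 to 409 per library, so counting error was large only at the low end.

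Hoxd11, the HoxD neighbour of Hoxd10, was at 1.59, 0.33 and 0.82 FPKM in sham males and 1.34, 1.09 and 0.42 FPKM in sham females. In fracture mice it was at 0.67, 1.86 and 0.49 FPKM in males and 0.45, 1.12 and 0.70 FPKM in females, and in PDX mice at 0.49, 1.72 and 0.18 FPKM in males and 0.67, 0.34 and 0.60 FPKM in females. The mice that were high for Hoxd10 were mostly high for Hoxd11 as well. Hoxa11 had a wider ratio than either among PDX mice, where the highest exceeded the lowest 14.97-fold (CPM), against 9.23-fold for Hoxd11 and 7.05-fold for Hoxd10, with 4 reads in the lowest library.

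**Figure D3:**
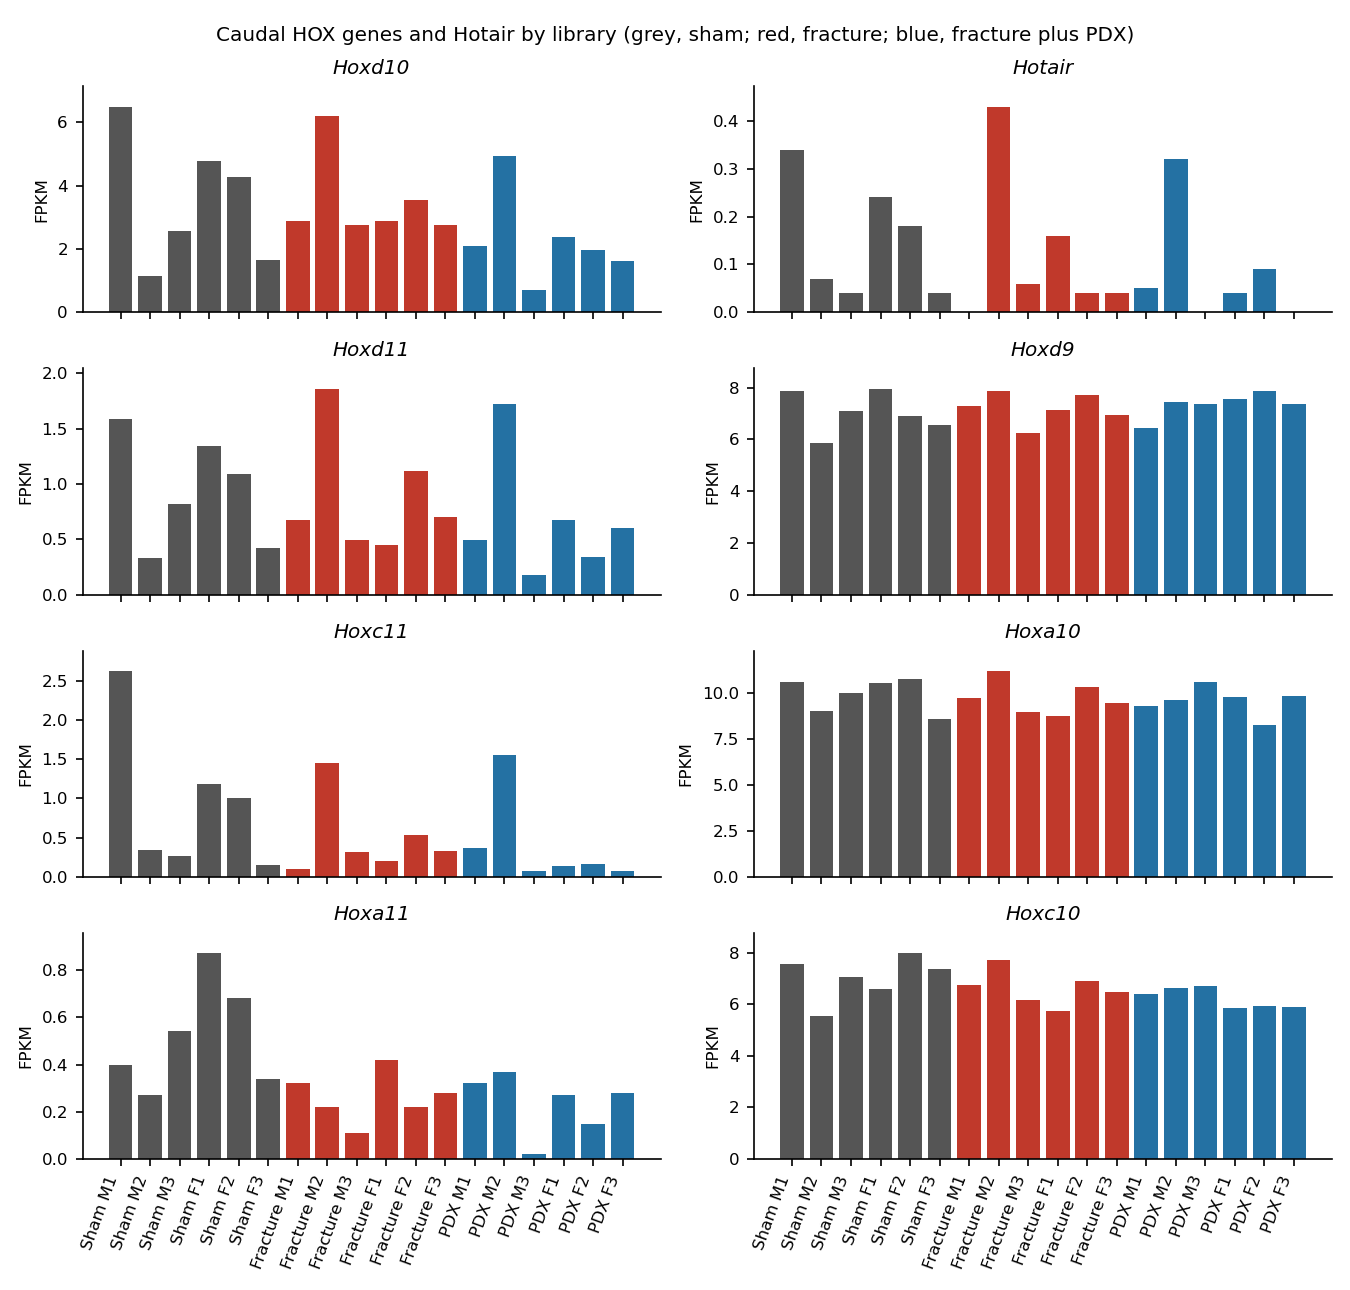
FPKM (linear y axes from 0) of 4 caudal HOX genes, the noncoding RNA Hotair and the less variable genes Hoxd9, Hoxa10 and Hoxc10, with 1 bar per library in the same order in each panel (M, male; F, female; PDX, fracture plus PDX). Sham M1, Fracture M2 and PDX M2 stand high for Hoxd10, Hoxd11, Hoxc11 and Hotair, while the bars of Hoxd9, Hoxa10 and Hoxc10 are nearly level.

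The same libraries led these genes. Sham male 1, Sham female 1, Sham female 2, Fracture male 2 and Fracture+PDX male 2 were the 5 highest of 18 libraries for Hoxd10, and the same 5 were highest for Hoxc11 and for Hotair, a noncoding RNA transcribed between Hoxc11 and Hoxc12. For Hoxd11 4 of the 5 were shared, for Hoxa11 3, for Hoxa10, Hoxc10 and Hoxd9 3 each, and for Hoxa9 and Hoxc9 1 each. Fracture+PDX male 3 was the lowest library for Hoxd10, Hoxd11 and Hoxa11. HoxC and HoxD lie on different chromosomes. Ranks are given as a description, with no test.

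The spread was measured with edgeR's biological coefficient of variation (BCV), in a fit with terms for sex and group. The BCV is the relative spread of a gene between mice beyond counting error, and edgeR draws it toward the trend of all genes. The BCV was 90.7% for Hoxc11, 60.3% for Hoxd11 and 52.4% for Hoxd10, or 2.64, 2.29 and 2.34 times the trend of all genes at the same level. Among the 32 HOX genes that passed the filter on low counts these 3 (9.38%) lay over 2 times the trend, against 3.76% of all genes tested. Hoxa11 had a BCV of 48.6%, 1.29 times the trend. All other members lay at or under 1.14 times the trend, and the median BCV of the 32 genes (15.6%) was close to that of all genes (14.5%). The trend lies above the typical gene: 25% of the 32 HOX genes and 20.9% of all genes lay above it. The ratio of 1.14, that of Hoxd3, was higher than the ratio of 85.2% of all genes.

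Several other genes of groups 7 to 10 had a low BCV at a higher level, where the trend is lower too. Hoxa10 had a BCV of 9.03% (0.811 times the trend), Hoxc10 of 11.6% (0.713 times), Hoxd9 of 10.5%, Hoxa9 of 7.40% and Hoxa7 of 6.44%. Hoxb8 (16.4%, 1.01 times the trend), Hoxb9 (15.4%, 0.959 times) and Hoxc8 (0.628 times) had a BCV above the median of all genes (14.5%). Hoxc8 also lay at a lower level than Hoxd10 (mean log2 CPM 2.39 against 2.64). In every group of mice the highest library exceeded the lowest by at most 1.28-fold for Hoxa10 and 1.40-fold for Hoxc10 (CPM), against 7.05-fold for Hoxd10 in PDX mice. Hoxa10 and Hoxc10 thus varied about as much as other genes of their level, and Hoxd10 varied more.

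Markers of other tissue were set beside this pattern. The 3 libraries with the highest sums of spinal cord genes (Sham male 1, Fracture male 2 and Sham female 2) were among the 5 that led Hoxd10 and Hoxc11, while the other 2, Sham female 1 and Fracture+PDX male 2, had sums of 3.35 and 2.84 FPKM. Of the 10 spinal cord genes 6 had a median under 0.1 FPKM. The glial gene Gfap was highest in Sham male 1 (4.03 FPKM) and next highest in Sham female 2 (2.63 FPKM), against a median of 1.295 FPKM. Whether the sums of Sham male 1 and Sham female 2 stand for spinal cord RNA was not tested. In Fracture male 2, the library with Hoxb13 reads, the spinal interneuron gene Slc6a5 had 218 reads against at most 24 elsewhere, and En1 had 103 against at most 20. Without the 3 libraries the BCV was 88.7% for Hoxc11, 58.8% for Hoxd11, 48.8% for Hoxd10 and 54.2% for Hoxa11 (1.42 times the trend), and the same 3 genes lay over 2 times the trend. The part of spinal cord RNA in the caudal genes, and of the share of each ganglion in the pool of a mouse, which is not given per library in the sources used here, was not tested. In bulk tissue, fewer cells of a type and less RNA per cell cannot be told apart.

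**Figure D4:**
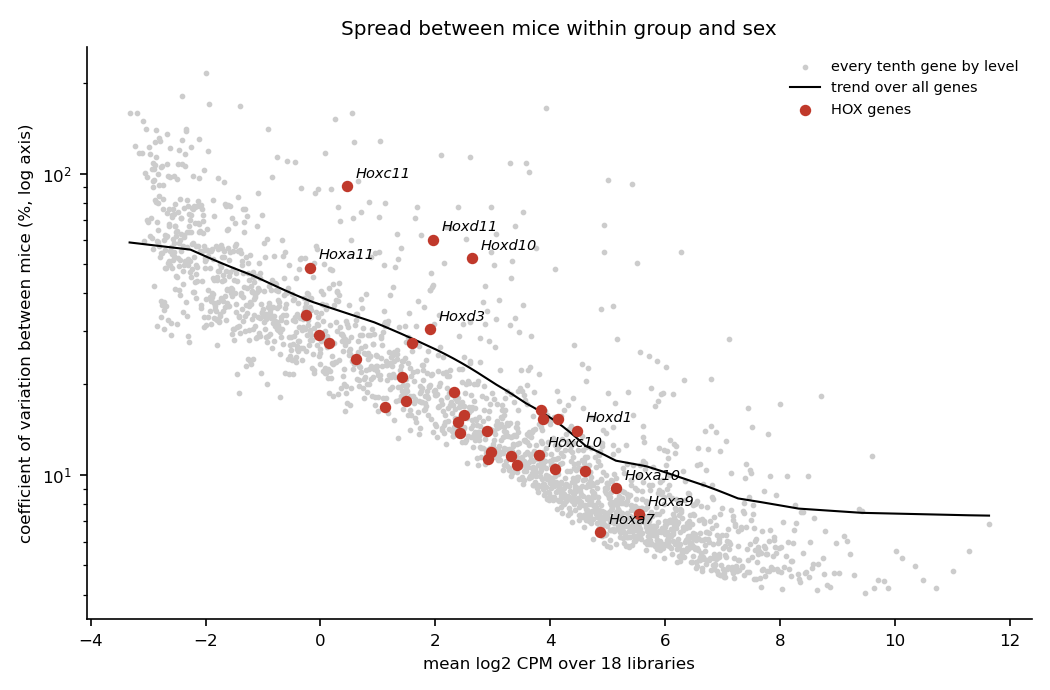
Biological coefficient of variation between mice (y axis, %, log scale) against mean log2 CPM (x axis) for the 32 HOX genes that passed the filter (red), a thinned set of all genes (grey) and the trend of all genes (black line). Hoxc11 (90.7%), Hoxd11 (60.3%) and Hoxd10 (52.4%) lie far above the line and Hoxa7 (6.44%) lies well below it.

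The upstream sequences of HoxD neighbours were set side by side because Hoxd10 and Hoxd11 varied widely between mice and Hoxd8 (BCV 10.3%) varied less. RefSeq promoters were found for 22 of the 38 genes. The 250 bases before the start site are printed 5′ to 3′ on the plus strand (GRCm38.p6). The 4 motifs searched on both strands, whose matches are in capitals, were the core promoter box TATAAA, the motif of CDX factors, which act on caudal Hox genes, written TTTATG, the motif of HOX with its partner PBX, written TGATNNAT, and the repeat unit of retinoic acid receptor sites, written AGGTCA.
Hoxd11 chr2:74682073-74682322: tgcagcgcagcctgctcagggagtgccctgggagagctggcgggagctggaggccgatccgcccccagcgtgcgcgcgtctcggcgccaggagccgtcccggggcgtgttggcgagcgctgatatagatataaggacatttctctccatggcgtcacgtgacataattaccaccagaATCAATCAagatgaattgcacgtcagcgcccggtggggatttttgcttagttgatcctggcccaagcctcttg
Hoxd10 chr2:74691641-74691890: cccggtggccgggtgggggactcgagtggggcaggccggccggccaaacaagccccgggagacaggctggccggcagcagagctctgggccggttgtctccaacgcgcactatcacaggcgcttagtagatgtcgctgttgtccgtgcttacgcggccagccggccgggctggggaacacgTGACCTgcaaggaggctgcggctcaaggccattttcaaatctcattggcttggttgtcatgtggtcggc
Hoxd8 chr2:74704365-74704614: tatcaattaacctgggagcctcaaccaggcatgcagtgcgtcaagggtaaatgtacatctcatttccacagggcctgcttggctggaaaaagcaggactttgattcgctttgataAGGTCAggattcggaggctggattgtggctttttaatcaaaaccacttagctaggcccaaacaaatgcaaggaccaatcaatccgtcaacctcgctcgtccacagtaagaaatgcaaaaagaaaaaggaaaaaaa
The Hoxd11 window, which lies before the coding transcript and inside the longer gene body, held 1 HOX-PBX match starting 73 bases before the start site. Hoxd10 held 1 AGGTCA match, 69 bases before it, and Hoxd8 held 1, 135 bases before it. Over all 32851 promoters of the table, 12.4% held TATAAA, 10.8% TTTATG, 7.68% TGATNNAT and 14% AGGTCA. The windows of Hoxd11 and Hoxd10 held 20 CpG dinucleotides each and that of Hoxd8 held 6, beside medians of 6 over all promoters and 12.5 over 24 HOX promoters. The matches describe these windows and show no binding.

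The comparison of fracture with sham asked whether the injury changed the HOX code of the ganglia that supply the limb. No HOX gene changed at an adjusted p under 0.05: 0 of 32 tested members were called, where 2.92% of all 20659 genes were. DESeq2 called 2 of 32, Hoxa7 and Hoxa11, where it called 8.08% of all genes. At an unadjusted p under 0.05 there were 3 members (9.38%), against 18.5% of all genes. The median log2 fold change over the 32 members was 0.04, beside 0.00 over all genes, and 20 members were above 0 and 12 below.

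The 22 expressed genes had mostly narrow intervals. Their log2 fold changes lay between -0.26 and 0.17, and for 19 of 22 the 95% interval was within 0.5 on the log2 scale in either direction. Hoxa10 gave -0.02 (95% interval -0.16 to 0.13), Hoxa9 0.06 (-0.04 to 0.16) and Hoxd1 0.04 (-0.15 to 0.22). For the variable caudal genes the intervals were wider, at -0.91 to 0.93 for Hoxd10 and -2.67 to 0.78 for Hoxc11.

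Hoxa7, a gene of the thoracic region, had the smallest p among the members. It was at 8.15, 8.58 and 9.25 FPKM in sham, 9.13, 9.43 and 9.81 FPKM in fracture, and 8.73, 9.58 and 10.1 FPKM in PDX mice. As CPM, 5 of 6 fracture libraries lay above all sham libraries. The log2 fold change was 0.13 ± 0.04 (SE) in fracture against sham (unadjusted p = 0.00467, adjusted p = 0.0858) and 0.14 ± 0.04 in fracture plus PDX against sham (adjusted p = 0.102). DESeq2 gave adjusted p-values of 0.0319 and 0.0452. The gene body of Hoxa7 overlaps Hoxaas3 on the opposite strand, so its counts are among the uncertain ones. The two-sided exact permutation test on log2 CPM of the 6 and 6 mice gave p = 0.00866 and p = 0.0238. It was run only for the 7 cases of a member and a comparison with an unadjusted p under 0.05, and the smallest p it can give is 0.00216. The summed level of the sensory neuron genes was 4622 to 4967 FPKM in sham, 5161 to 5286 FPKM in fracture and 4966 to 5384 FPKM in PDX mice, and its part in the Hoxa7 values was not tested.

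Hoxa11, which patterns the lumbosacral axis, the forelimb and the reproductive tract, was lower in both fracture groups at a low level. It was at 0.27, 0.47 and 0.87 FPKM in sham, 0.11, 0.25 and 0.42 FPKM in fracture, and 0.02, 0.275 and 0.37 FPKM in PDX mice, with 4 to 169 reads per library. The log2 fold change was -0.96 ± 0.30 (SE) against sham in fracture (adjusted p = 0.105; DESeq2, 0.0388) and -1.06 ± 0.45 in PDX mice (adjusted p = 0.235; DESeq2, 0.133). The groups overlapped in both comparisons, and the exact permutation test gave p = 0.0216 and p = 0.0195. The placenta genes, which sham libraries held at 136 to 434 FPKM, and the embryo and fetus genes (175 to 319 FPKM) were lower in fracture and PDX libraries too. The sum of 10 fibroblast genes was 236 to 310 FPKM in sham, 214 to 250 FPKM in fracture and 193 to 280 FPKM in PDX libraries, with 1 of 10 called in fracture and 0 of 10 in PDX against sham by edgeR (5 and 4 at an unadjusted p under 0.05; DESeq2 called 3 and 3). Over all genes the shares were 2.92% and 4.5% by edgeR, 18.5% and 18% unadjusted, and 8.08% and 8.59% by DESeq2. The part of these lists in the Hoxa11 result was not tested. The gene body of Hoxa11 overlaps the antisense gene Hoxa11os, so its counts are among the uncertain ones.

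Hoxc6, a gene of the brachial and thoracic region, had a log2 fold change of -0.23 ± 0.09 in fracture (adjusted p = 0.193) and -0.22 ± 0.08 in PDX mice (adjusted p = 0.135) against sham. Its level was 2.56, 3.32 and 3.85 FPKM in sham, 2.51, 2.79 and 2.92 FPKM in fracture, and 2.51, 2.62 and 3.09 FPKM in PDX mice. Sham thus reached higher, with an overlap at the low end. The exact permutation test gave p = 0.0325 and p = 0.0519. The placenta, embryo and fetus and fibroblast sums had their highest libraries in sham as well, and their part in the Hoxc6 values was not tested. Since the gene body of Hoxc5 spans Hoxc6, its counts are among the uncertain ones.

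**Figure D5:**
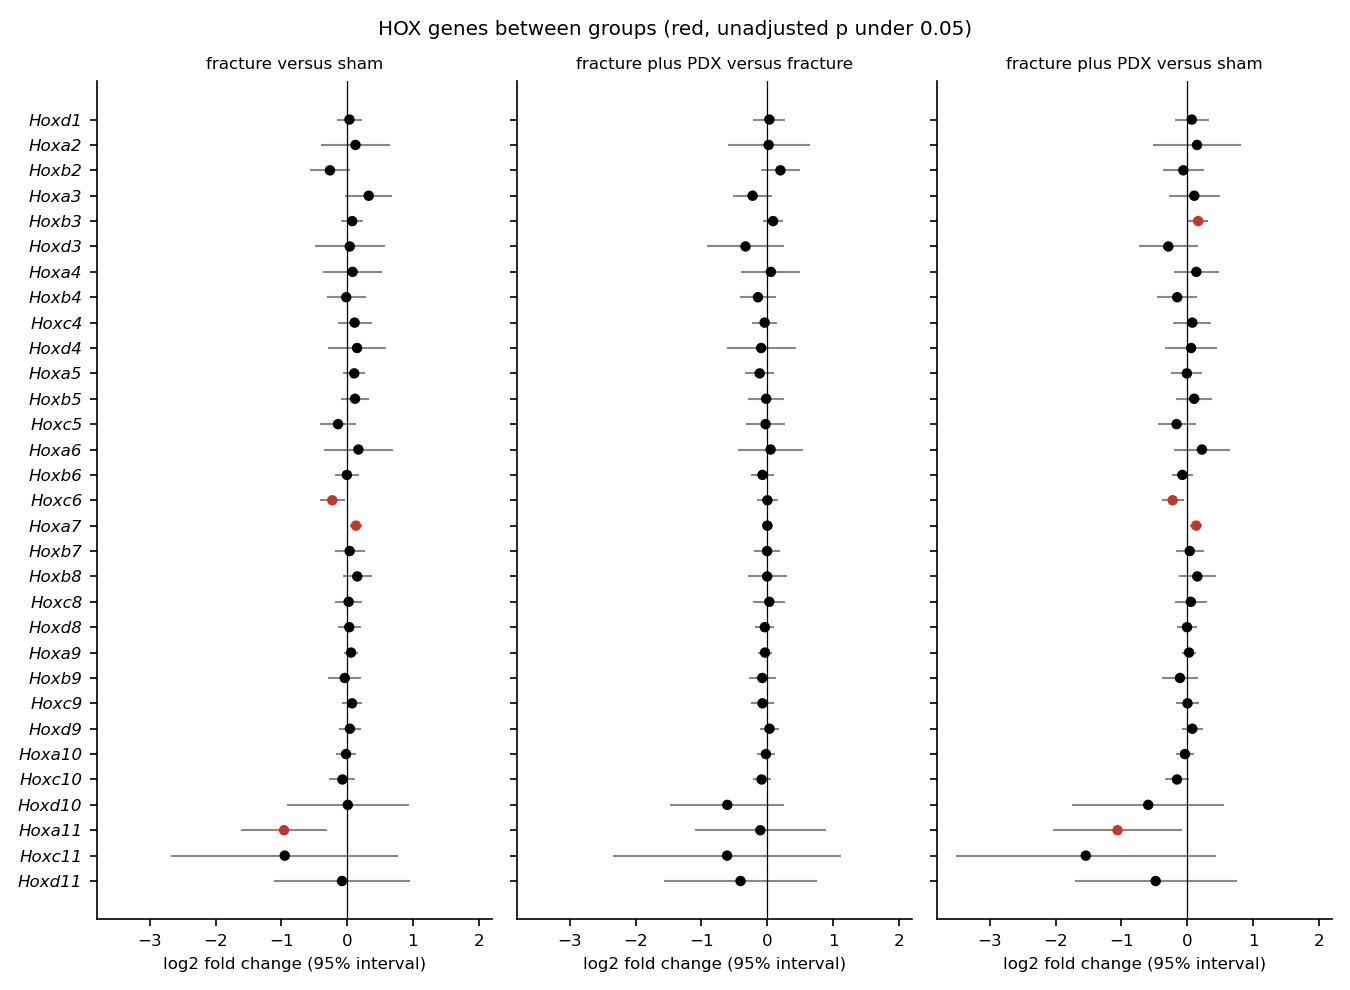
Log2 fold changes (points) with 95% intervals (lines) of Hoxd1 and of the tested HOX genes of paralog groups 2 to 11, ordered by paralog number, in the 3 comparisons. Red marks an unadjusted p under 0.05. Most intervals are short and centred near 0, and those of Hoxd10, Hoxa11, Hoxc11 and Hoxd11 are the widest in each panel.

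Setting PDX mice against fracture mice asked whether the treatment acted on these genes. No member was called, at a background of 0% of 20562 genes, and 0 members had an unadjusted p under 0.05, against 5.41% of all genes; DESeq2 called 0 (0.0635% of all genes). Without Fracture+PDX male 2 there were 3 members with an unadjusted p under 0.05 and 0 called. Of the 22 expressed genes 20 had a 95% interval within 0.5 on the log2 scale. Apart from Hoxd10 (-0.61, 95% interval -1.47 to 0.26, with 5 of 6 PDX libraries below all fracture libraries), the expressed genes had log2 fold changes between -0.14 and 0.20. Hoxa7 was at 0.00 ± 0.04 and Hoxa10 at -0.02 ± 0.06.

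Fracture plus PDX against sham gave 0 of 32 members called, where 4.5% of 20574 genes were, and DESeq2 called 1, Hoxa7 (8.59% of all genes). An unadjusted p under 0.05 was found for 4 members (12.5%), against 18% of all genes. They were Hoxa7, Hoxa11 and Hoxc6 and, in addition, Hoxb3. The log2 fold change of Hoxb3 was 0.17 ± 0.07 (SE, adjusted p = 0.227; exact permutation p = 0.0281). The sensory neuron sum was 4622 to 4967 FPKM in sham and 4966 to 5384 FPKM in PDX mice, and its part in the Hoxb3 values was not tested. This comparison and that of fracture with sham share the sham libraries. In none of the 3 comparisons did a member separate the groups without overlap, as 2.49%, 0.277% and 2.97% of all genes did.

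The summed HOX level overlapped between the groups as well. The sum over the 38 genes was 97.4, 112 and 119 FPKM in sham, 106, 109.5 and 124 FPKM in fracture, and 106, 109 and 111 FPKM in PDX mice. The log2 ratio of groups 10 to 13 over groups 4 to 8, a summary of how caudal the profile was, had a mean of -1.14 ± 0.28 (SD, n = 6) in sham, -1.26 ± 0.18 in fracture and -1.38 ± 0.24 in PDX mice. The difference was not tested. In the test of any difference among the 3 groups, 0 of 32 members were called (4.7% of all genes) and 3 had an unadjusted p under 0.05 (18% of all genes).

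Sex was examined because each group held 3 males and 3 females. Between sexes 0 of 32 members were called (0.291% of all genes), and 3 had an unadjusted p under 0.05 (10.1% of all genes). Hoxb6, a gene of the thoracic region, came closest. It was at 3.54, 3.99 and 5.09 FPKM in the 9 males and 4.34, 5.14 and 5.39 FPKM in the 9 females, with an overlap between the sexes. Females were higher by 0.28 ± 0.06 (SE) on the log2 scale (unadjusted p = 0.000287, adjusted p = 0.0654), and without Fracture male 2 the difference was 0.33 (adjusted p = 0.0141). Its gene body overlaps the antisense gene Hoxb5os. In edgeR, Hoxa7 was lower in females (log2 fold change -0.09, unadjusted p = 0.0143, adjusted p = 0.325). Hoxc6 was higher in females (0.14, unadjusted p = 0.0493, adjusted p = 0.492).

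Whether the response differed between sexes was tested with 3 mice per sex and group, which left wide intervals. In the tests of sex by fracture and of sex by PDX 0 of 32 members were called, at backgrounds of 0% and 0.00486%. An unadjusted p under 0.05 was found for 2 members, Hoxa2 (-0.94, 95% interval -1.87 to -0.0055) and Hoxc6 (-0.35, -0.69 to -0.01), and for 0 members, against 7.2% and 4.14% of all genes.

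HOX proteins bind DNA with partners of the PBX, MEIS and PKNOX families, and these, with the related homeodomain gene Tgif1, were measured in the same libraries. All 10 passed the filter, and edgeR called 0 of 10 in each of the 3 comparisons, with 1, 0 and 3 at an unadjusted p under 0.05 in fracture against sham, fracture plus PDX against fracture, and fracture plus PDX against sham. DESeq2 called Meis3 in the first of these and Tgif1 in the last. Over all genes edgeR called 2.92% and 4.5% in the comparisons with sham, 18.5% and 18% had an unadjusted p under 0.05, and DESeq2 called 8.08% and 8.59%. Pbx2 (median 14.5 FPKM), Meis3 (8.33 FPKM) and Pknox2 (5.69 FPKM) were the highest. Meis3 was 0.19 ± 0.05 higher in fracture than in sham on the log2 scale, with an adjusted p of 0.0626. In the same comparison edgeR called 4 of 17 sensory neuron genes, all higher, and DESeq2 called 8, and their part in the Meis3 values was not tested.

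Genes that set HOX expression in the embryo were measured next. Of 12 such genes that were measured, 10 were tested. In fracture against sham edgeR called 0 (3 at an unadjusted p under 0.05) and DESeq2 called Cdx2 and Lin28a. In fracture plus PDX against sham edgeR called Cdx2 (3 at an unadjusted p under 0.05) and DESeq2 called Cdx2 and Rarg, and against fracture both called 0 (1 at an unadjusted p under 0.05). Over all genes the shares were those given for the partners, and 5.41% unadjusted against fracture. Rarg (9.63 FPKM) and Gdf11 (6.52 FPKM), a retinoic acid receptor and a signal for the trunk to tail transition, and Aldh1a2 (5.03 FPKM), which makes retinoic acid, were the highest. Cdx2, an activator of caudal Hox genes that is also active in the placenta, fell by 2.36 on the log2 scale in fracture plus PDX against sham mice (SE 0.57, adjusted p = 0.0324), from a level with a highest library of 0.37 FPKM. The placenta genes moved with it, 15 of 19 being called lower in that comparison, as did 4 of the 7 embryo and fetus genes, and their part in it was not tested.

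Polycomb and trithorax complexes keep Hox genes off and on after the embryo. Of 30 Polycomb genes edgeR called 1 in fracture against sham (background 2.92%), Cbx7, a reader of the repressive mark, which fell by 0.24 on the log2 scale (SE 0.04, adjusted p = 0.0162). In fracture plus PDX against sham edgeR called 4 of 30 (background 4.5%), all lower: Cbx7, the ubiquitin ligase Rnf2, Phc1 and Pcgf5, each by 0.21 to 0.30 on the log2 scale. In both comparisons 9 of 30 had an unadjusted p under 0.05, against 18.5% and 18% of all genes. DESeq2 called 3 (Cbx7, Phc3 and Rnf2) and 5 (Cbx2, Cbx7, Pcgf5, Phc1 and Rnf2), against 8.08% and 8.59% of all genes. Of these Phc3 was higher than in sham, with a mean of 0.87 ± 0.966 FPKM (SD, n = 6) in sham and 2.10 ± 0.118 FPKM in fracture mice and an edgeR log2 fold change of 1.72 (SE 0.64, adjusted p = 0.188). The embryo and fetus genes and the placenta genes were lower than in sham in the same libraries, at 73.7 to 153 and 88.4 to 141 FPKM (embryo and fetus) and 24.7 to 194 and 22.5 to 107 FPKM (placenta), and their part in the Polycomb values was not tested. Rbbp7 (36.7 FPKM), Cbx6 (22.8 FPKM) and Phc2 (13.9 FPKM) had the highest levels. Of 14 trithorax genes edgeR and DESeq2 called 0 in each of the 3 comparisons, with 1, 0 and 0 at an unadjusted p under 0.05, and the 3 highest were Psip1 (22.0 FPKM), Dpy30 (16.9 FPKM) and Men1 (16.4 FPKM). Between fracture plus PDX and fracture mice edgeR and DESeq2 called 0 of 30 Polycomb genes, with 0 at an unadjusted p under 0.05. Over all genes in that comparison edgeR called 0% and DESeq2 0.0635%, and 5.41% had an unadjusted p under 0.05. Kdm6a, an X-linked demethylase, was listed with the 30 Polycomb genes although it removes the repressive mark. It was the 1 gene of the list called between sexes (0.291% of all genes), with females 0.45 higher on the log2 scale.

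The clusters also hold noncoding genes. Of the 16 that were measured, 10 were tested in fracture against sham, and edgeR and DESeq2 called 0 in each of the 3 comparisons, with 0 at an unadjusted p under 0.05. Over all genes, in fracture against sham, PDX against fracture and PDX against sham, edgeR called 2.92%, 0% and 4.5%, DESeq2 8.08%, 0.0635% and 8.59%, and 18.5%, 5.41% and 18% had an unadjusted p under 0.05. Haglr, which is antisense to the HoxD cluster, had a median of 1.32 FPKM and Hoxd3os1 of 0.89 FPKM, and Mir196a-1 was listed at 1.18 FPKM with at most 22 reads. Hotair was at or near 0 in most mice and reached 0.34 FPKM in Sham male 1, 0.43 FPKM in Fracture male 2 and 0.32 FPKM in Fracture+PDX male 2. Of the 13 genes that flank the clusters 11 were tested, and edgeR and DESeq2 called 0 in each comparison, with 1 at an unadjusted p under 0.05 in each, at the same backgrounds. Snx10 (13.6 FPKM), Snx11 (12.9 FPKM) and Mtx2 (11.04 FPKM) were the highest of them.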

How the data were processed

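L3–L5 ganglia of 18 mice were profiled as poly(A) RNA (1 stranded library per mouse). The authors deposited a table of raw read counts and FPKM per gene, with mm10 coordinates. Their processing notes name cutadapt 1.10, FastQC, HISAT2 and StringTie, and the program that counted reads and its use of strand are not given in the sources used here. The deposited counts, 63235040 to 82824942 per library, carry counting error that matters for genes near the floor and for low libraries of Hoxa11 and Hoxc11. The deposited FPKM values were used for levels between genes, and the counts for tests. Columns labelled Con were read as the sham samples by their titles.

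Each comparison was fitted on its 12 libraries with edgeR 4.0.16 (quasi-likelihood, TMM, filterByExpr with a minimum count of 10 and a minimum total of 15, terms for sex and group; R 4.3.3), with Benjamini-Hochberg adjustment over all genes tested and a threshold of 0.05. All 18 libraries entered the tests of sex, of any difference and of spread. Libraries are separate mice, so p-values set differences of group or sex against the variation between mice. With 1 library per mouse, variation between mice and between library preparations cannot be told apart. Exact permutation tests used log2 CPM with a prior count of 2. Alternatives used DESeq2 1.42.0 and limma 3.58.1. The fits were tested on simulated counts.

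The members and the gene lists were chosen with earlier results of these data known. Values by group are given for the highest member of each paralog group at or above 0.1 FPKM and for each member with an unadjusted p under 0.05 among the 3 groups. For the related lists the 3 highest genes are given with their median over all libraries, and the genes called are named. Other genes named (such as Hoxc11, Hoxd10, Hoxc10, Hoxd9, Hotair and the marker genes) were chosen after their values were seen. The values of 1 member are not reported here.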

Additional observations from a re-analysis of the deposited data

Results flagged for a closer look

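Within each group of 6 mice, the highest or lowest library was set against its nearest neighbour with Dixon's criterion, for the 32 tested HOX genes, their summed FPKM and the log2 ratio of caudal to middle groups. It marked 10 of 102 cases, where chance marks about 1 in 20. Fracture male 2 stood apart for Hoxc11 at 1.45 FPKM (next 0.53 FPKM) and for Hoxd10 at 6.2 FPKM (next 3.56 FPKM). Fracture+PDX male 2 stood apart for Hoxc11 at 1.55 FPKM (next 0.37 FPKM), for Hoxd11 at 1.72 FPKM (next 0.67 FPKM), for Hoxa3 at 0.5 FPKM (next 0.39 FPKM), and for the log2 ratio of groups 10 to 13 over groups 4 to 8 at -0.92 (next -1.37). The caudal genes thus account for 4 of the 9 cases that are single genes.

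The remaining cases lay in other libraries. Hoxa4 was at 1.5 FPKM in Fracture female 2 (next 0.82 FPKM) and Hoxa5 at 3.36 FPKM in Fracture+PDX female 3 (next 2.43 FPKM). Fracture+PDX male 1 was the lowest of its group for Hoxb4 at 0.71 FPKM (next 0.9 FPKM) and for Hoxd9 at 6.44 FPKM (next 7.36 FPKM).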

How the results depend on the processing

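No HOX result changed direction with a call. DESeq2 called 2 members in fracture against sham (Hoxa7 and Hoxa11) and 1 in fracture plus PDX against sham (Hoxa7), with 1506 and 1627 calls over all genes against 603 and 925 in edgeR. Adjusted p-values in fracture against sham ranged over the alternatives from 0.0319 to 0.2 for Hoxa7 and from 0.0388 to 0.275 for Hoxa11. The log2 fold change of Hoxa11 ranged from -1.14 to -0.26 in fracture and from -1.30 to -0.29 in fracture plus PDX against sham, the smallest being those on the log2(FPKM + 1) scale, which understates changes of low genes. Without the 3 libraries with the highest spinal cord sums, an alternative chosen after seeing the data, 1 member was called between sexes (Hoxb6, 0.34, adjusted p = 0.0317). The log2 ratio of groups 9 to 13 over groups 1 to 8 was -0.53 in sham, -0.60 in fracture and -0.67 in PDX mice. With 1 library left out at a time, each of the 3 comparisons kept 0 to 0 members called, any difference gave 0 to 1 (Hoxc6 without Sham male 1, adjusted p = 0.0462, and Hoxa7 without Fracture+PDX female 3, adjusted p = 0.0327), and female against male gave 0 to 1 (Hoxb6 without Fracture male 2). The spread gave 2 to 3 members over 2 times the trend (2 without Fracture+PDX male 2, where Hoxd11 was at 1.97 times), 22 to 22 genes were expressed, and the ratio ranged from -1.20 to -1.07 in sham, -1.33 to -1.23 in fracture and -1.47 to -1.33 in PDX mice. Over other thresholds 18 to 28 HOX genes counted as expressed.

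With a replicate block, 0 members were called in each of the 3 comparisons and for any difference, and all genes gave 118, 0, 486 and 770 calls. Same-numbered samples had correlations of their deviations between -0.0705 and 0.126. Samples with different numbers were not set beside them, so a shared batch was not tested. Depth limits the 6 genes near the floor, which entered tests only without the filter, where 0 members were called and 4 (fracture against sham) and 5 (any difference) had an unadjusted p under 0.05, against 3 and 3 with it.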
